A study of Drosophila melanogaster with 2 samples.

Results

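The 8 protein-coding genes with the symbols CCT1 to CCT8 encode the subunits of the cytosolic chaperonin of Drosophila melanogaster, and they were chosen by symbol from 13945 protein-coding genes of the Ensembl annotation on dm6. All 8 had the same symbol, chromosome and gene bounds in RefSeq. Binding of CG1603, a zinc-finger protein, was mapped near them by chromatin immunoprecipitation with sequencing in whole embryos of mixed sex, 0 to 16 h old. Every embryo came from 1 transgenic line that stably expresses CG1603 fused at its C terminus to GFP, and the labels describe an anti-GFP antibody while their antibody field names CG1603. The only group held 2 biological replicates, numbered 2 and 3, and no peak list from untagged or control embryos was analysed here. Since whole embryos were used, the cells in which a site was occupied are not known.

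The CCT proteins form a chaperonin of stacked rings, also called TRiC, in which each ring holds 1 copy of each of the 8 subunits. ATP hydrolysis closes the rings around unfolded proteins, among them actin and tubulin, which depend on this chamber to fold. The subunits have equal stoichiometry but differ in how they bind substrate and ATP. CCT1 to CCT8 are known in other species by the Greek letters alpha, beta, gamma, delta, epsilon, zeta, eta and theta in that order. Prefoldin hands unfolded actin and tubulin to the chaperonin, and phosducin-like proteins act as its cofactors.

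The sequences below are those under a selection of the peak summits, shown because the letters CGATA recur in several of them. Each runs 5′ to 3′ on the strand of the CCT gene, was read from the RefSeq release 6 assembly (dm6 coordinates), covers up to 100 bp on either side of the summit and stops where an annotated exon begins. Capitals mark CGATA on either strand, which includes the core of TATCGATA, the DNA replication-related element (DRE).
CCT1 promoter peak, chr3R:22491440-22491601, minus strand: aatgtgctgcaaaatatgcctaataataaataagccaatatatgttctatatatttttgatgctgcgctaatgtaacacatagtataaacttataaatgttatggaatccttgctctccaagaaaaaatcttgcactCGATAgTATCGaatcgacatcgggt
CCT2 promoter peak, chrX:9089374-9089512, plus strand: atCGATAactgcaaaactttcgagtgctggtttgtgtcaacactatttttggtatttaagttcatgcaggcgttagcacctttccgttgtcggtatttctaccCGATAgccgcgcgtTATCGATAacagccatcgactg
CCT2 intron peak, chrX:9090032-9090232, plus strand: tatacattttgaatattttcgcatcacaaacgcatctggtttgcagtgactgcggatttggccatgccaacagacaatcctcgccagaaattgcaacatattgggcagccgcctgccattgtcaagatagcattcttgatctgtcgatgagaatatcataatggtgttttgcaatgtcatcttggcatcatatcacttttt
CCT3 upstream peak, chr3R:16647005-16647198, plus strand: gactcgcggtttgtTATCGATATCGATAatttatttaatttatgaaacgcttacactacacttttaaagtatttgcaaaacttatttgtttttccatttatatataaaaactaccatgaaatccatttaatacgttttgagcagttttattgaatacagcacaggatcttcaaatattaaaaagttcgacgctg
CCT3 start site, weaker peak, chr3R:16647478-16647604, plus strand: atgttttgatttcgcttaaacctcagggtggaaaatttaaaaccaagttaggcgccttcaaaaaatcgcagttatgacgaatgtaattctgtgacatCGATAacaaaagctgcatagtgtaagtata
CCT4 promoter peak, chr2L:12692935-12692992, minus strand: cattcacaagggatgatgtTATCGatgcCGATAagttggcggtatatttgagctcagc
CCT6 upstream peak, chrX:15746232-15746372, plus strand: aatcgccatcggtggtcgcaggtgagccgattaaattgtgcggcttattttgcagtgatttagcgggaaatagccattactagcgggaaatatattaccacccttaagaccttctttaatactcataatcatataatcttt
CCT7 promoter peak, chr3R:8801398-8801563, plus strand: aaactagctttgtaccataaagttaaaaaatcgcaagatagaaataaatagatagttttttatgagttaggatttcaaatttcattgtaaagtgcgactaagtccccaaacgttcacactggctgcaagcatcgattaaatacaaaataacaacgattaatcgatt
The CCT4 sequence is the whole 58 bp between the start sites of CCT4 and its divergent neighbour CG6153, and it holds 2 CGATA in opposite orientation. The CCT1 promoter also holds a pair in opposite orientation near its start site, but with the orientations in the reverse order of those at CCT4. The CCT2 promoter sequence shown holds 4 CGATA and a complete TATCGATA. Its left edge cuts a second TATCGATA, which spans 9089373 to 9089380. The sequence upstream of CCT3 holds 2 overlapping TATCGATA, which together give 4 CGATA matches, and the CCT3 start site itself holds 1. The CCT2 intron, CCT6 and CCT7 sequences hold 0 CGATA. The promoter peaks of CCT5 and CCT8 are not shown, although both hold CGATA within 50 bp of the summit. CCT5 has it within a complete TATCGATA, and the CCT8 matches share the same orientation.

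Promoter peaks were found at nearly all CCT genes. A gene was called bound when the summit of a reproducible peak (the authors' list thresholded for agreement between replicates, 8963 peaks) lay within 500 bp of a transcription start site (TSS) of a protein-coding transcript. By this rule 7 of 8 CCT genes (87.5%) were bound, beside 35.3% of all protein-coding genes. CCT3 was the exception, with its nearest reproducible summit 507 bp upstream of its TSS. With each replicate's 8963 strongest peaks alone, 8 of 8 CCT genes were bound in replicate 2 (all genes 34.4%) and 7 of 8 in replicate 3 (all genes 37.5%). In the pooled list of 30000 peaks 8 of 8 were bound, beside 47.1% of all genes. When the gene body and 2 kb on either side were searched, 8 of 8 CCT genes held a reproducible peak, beside 51.5% of all genes. When a peak counted only for the gene with the nearest TSS, 5 of 8 remained, beside 27.8% of all genes, and CCT4 and CCT6 were the ones lost. The members were chosen with results of these data known, so these counts carry no test.

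**Figure D1:**
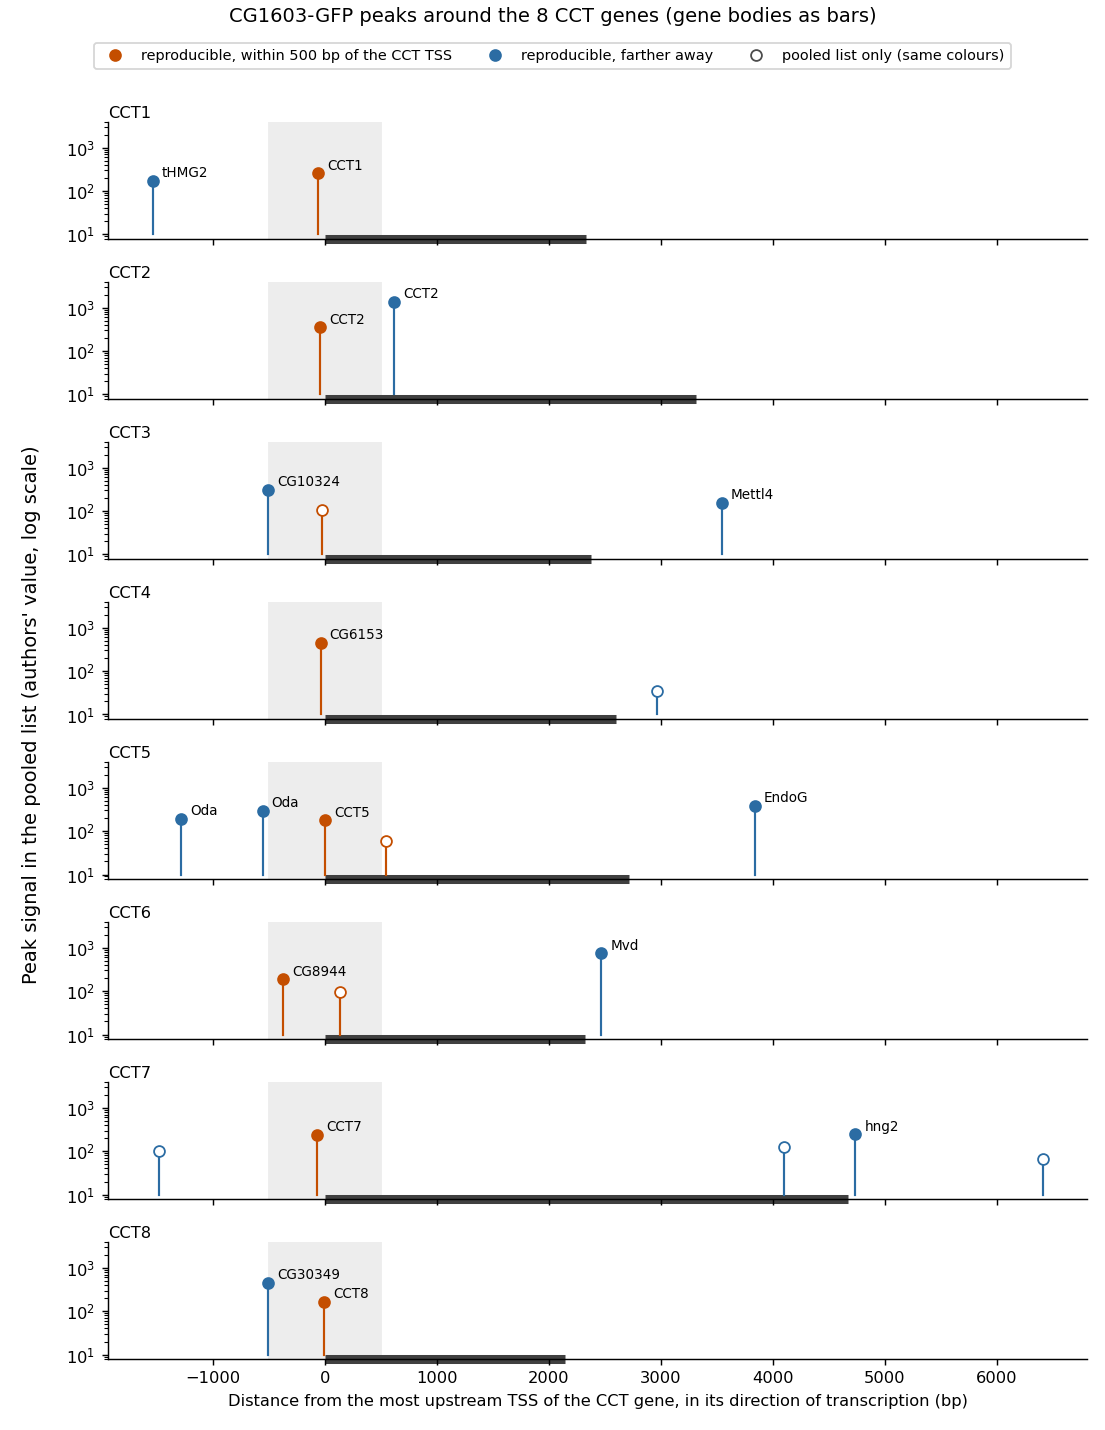
Peaks of the pooled list around the 8 CCT genes, 1 panel per gene. The x axis is the distance in bp from the most upstream TSS in the direction of transcription, the y axis the authors' peak signal on a log scale, the dark bar the gene and the grey band 500 bp on either side of that TSS; orange points lie within 500 bp of any TSS of the gene, which at CCT5 includes a downstream TSS. Filled points are reproducible peaks, labelled with the gene whose TSS is nearest, and open points are in the pooled list only. Reproducible peaks sit near the start site in 7 panels, and within a gene body outside the grey band in CCT2 alone.

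The reproducible peaks near the CCT genes, in the gene body or within 2 kb, numbered 17, with 1 to 4 per gene (median 2, against a median of 1 over all protein-coding genes). The nearest TSS was that of the CCT gene for 6 of them and that of another gene for 11. Of these 11, 10 lay within 500 bp of the other gene's TSS. All 17 overlapped a peak in replicate 2 and a peak in replicate 3. Of all 8963 reproducible peaks, 8820 had such a partner in replicate 2 and 8894 in replicate 3. The list was thresholded for this agreement, so the overlap is not particular to the CCT genes. The ranks of the partners lay within the strongest 8963 for 15 peaks in replicate 2 and for 17 in replicate 3. The exceptions were the peaks at tHMG2, upstream of CCT1 (rank 10931 in replicate 2), and at Mettl4, beyond the end of CCT3 (rank 10987). Summits lay upstream of the CCT gene for 11 peaks, within it for 2 and past its end for 4. Coding sequence of CCT genes held none of the 17.

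CCT4, the delta subunit gene (chromosome 2L, 12690336 to 12692934, minus strand), had the strongest promoter peak of the family. Its signal was 242.9 in replicate 2 and 209.9 in replicate 3, with ranks of 2790 and 3170, and in the reproducible list it ranked 2882. The peak covers positions 12692943 to 12693046 and its summit lies 38 bp upstream of the CCT4 TSS and 21 bp from that of CG6153. Since those start sites are 59 bp apart, the peak cannot be assigned to 1 of the genes. Of all bound genes, 44.7% had a stronger promoter peak than CCT4.

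CCT2, the beta subunit gene (chromosome X, 9089513 to 9092826, plus strand), had a pair of reproducible peaks. The promoter peak at positions 9089339 to 9089538 had signals of 179.7 in replicate 2 and 174.5 in replicate 3 and ranked 3879 in the reproducible list. Its summit lies 39 bp upstream of the TSS. The other peak, at 9089908 to 9090300, was the strongest near any CCT gene, with signals of 617.7 in replicate 2 and 720.3 in replicate 3 and a reproducible rank of 503. Its summit lies 619 bp downstream of the TSS in intron 1, an intron of 889 bp (9089599 to 9090487) that begins just after the start of the coding sequence. CCT2 is the only CCT gene without a head-to-head neighbour nearby, and the Ensembl annotation gives it a single TSS.

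CCT1, the alpha subunit gene (chromosome 3R, 22489105 to 22491439, minus strand), had a promoter peak at 22491336 to 22491665. Its signal was 131.3 in replicate 2 and 126.6 in replicate 3, and it ranked 5401 in the reproducible list. The summit lies 62 bp upstream of the TSS and also within 500 bp of the divergent gene tHMG1. CCT7, the eta subunit gene (chromosome 3R, 8801564 to 8806234, plus strand), had a promoter peak at 8801392 to 8801520. Its signal was 101.02 in replicate 2 and 130.2 in replicate 3, with a reproducible rank of 5790. Its summit lies 66 bp upstream of the TSS, and the divergent genes Pif1A and Pif1B share the peak. The replicates placed CCT1 at nearly the same rank (5522 in replicate 2 and 5605 in replicate 3) and CCT7 farther apart (6937 and 5463).

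CCT6, the zeta subunit gene (chromosome X, 15746648 to 15748971, plus strand), was bound only through a peak that lies closer to its neighbour. That peak (15746107 to 15746436, reproducible rank 7128) had signals of 90.3 in replicate 2 and 99.7 in replicate 3. Its summit lies 376 bp upstream of the CCT6 TSS but 41 bp from the TSS of the divergent gene CG8944. With a distance limit of 250 bp CCT6 was no longer called bound. A weaker peak, 139 bp downstream of the CCT6 TSS in its coding sequence, ranked 12028 in the pooled list. Its partners ranked 18631 in replicate 2, with a summit 46 bp downstream of the TSS, and 8657 in replicate 3, with a summit 134 bp downstream.

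CCT3, the gamma subunit gene (chromosome 3R, 16647605 to 16649978, plus strand), missed the call by 7 bp. The peak upstream of it (16647023 to 16647222, reproducible rank 4495) had signals of 173.9 in replicate 2 and 142.6 in replicate 3. Its summit lies 507 bp from the CCT3 TSS and 94 bp from that of the divergent gene CG10324. In replicate 2 the summit was 486 bp from the CCT3 TSS and in replicate 3 it was 516 bp away, on either side of the limit. A separate and weaker peak sits 27 bp upstream of the CCT3 TSS. It had signals of 51.6 in replicate 2 and 65.3 in replicate 3 and ranks of 11958 and 10158, and its pooled rank of 11378 left it outside the reproducible list.

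CCT8 and CCT5 had the weakest promoter peaks of the bound members in the reproducible list. CCT8, the theta subunit gene (chromosome 2R, 8904844 to 8906990, minus strand), had a peak at 8906833 to 8907162 with its summit 8 bp upstream of the TSS. Its signal was 76.1 in replicate 2 and 76.3 in replicate 3, and its reproducible rank was 7924. CCT5, the epsilon subunit gene (chromosome 2R, 12174802 to 12177516, plus strand), had a peak at 12174699 to 12174815 with its summit 1 bp downstream of the upstream TSS. Its signal was 108.6 in replicate 2 and 76.0 in replicate 3, with ranks of 6536 and 8914 and a reproducible rank of 7454. Of all bound genes, 94.7% had a stronger promoter peak than CCT8 and 91.9% a stronger one than CCT5. The low place of CCT8 depends on the 500 bp limit. A stronger peak, nearest to CG30349, had its summit 505 bp upstream of the CCT8 TSS (reproducible rank 2948). In the single replicates that peak was within the limit, at 468 bp in replicate 2 (rank 3474) and 500 bp in replicate 3 (rank 2524).

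The CCT promoter peaks were weaker than those of most bound genes. The 7 reproducible ranks ran from 2882 to 7924 with a median of 5790, whereas the strongest promoter peaks of all 4919 bound genes had a median rank of 3209 (middle 50% from 1578 to 5401). Among the 4481 strongest reproducible peaks, 2 of 8 CCT genes (CCT2 and CCT4) were bound, near the 23.0% of all genes. Counted over bound genes only, these were 2 of 7 CCT genes, against 3211 of all 4919. From strong to weak the order was CCT4, CCT2, CCT1, CCT7, CCT6, CCT5 and CCT8. By the partners of these peaks, CCT4 and CCT2 came first and second in each replicate. Among the others the replicates differed, since CCT5 ranked ahead of CCT6 and CCT7 in replicate 2 and behind both, at nearly the rank of CCT8, in replicate 3. The ranks of 1 peak differed between replicates by 1.08-fold in the median and by at most 1.36-fold over the 7 CCT genes, against a median of 1.24-fold over 4759 bound genes with a partner in both replicates.

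**Figure D2:**
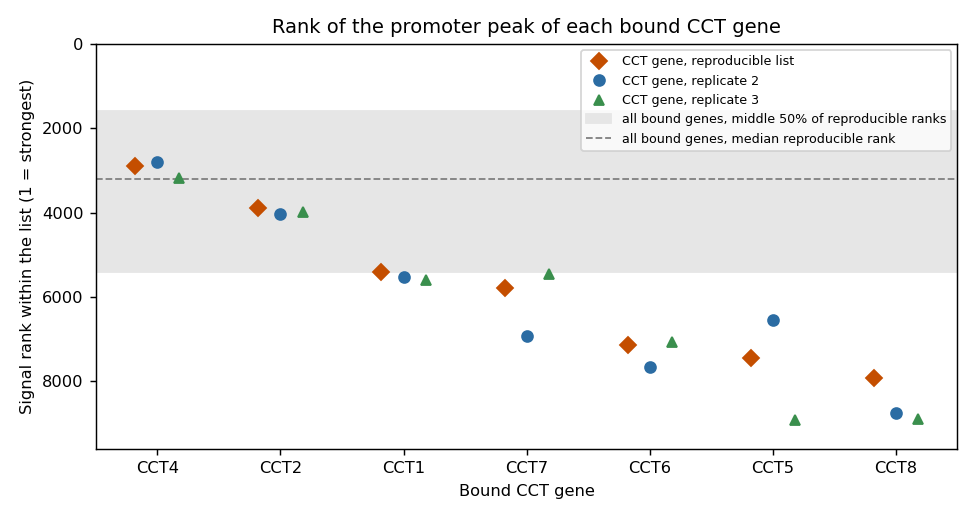
Signal rank of the promoter peak of the 7 bound CCT genes (x axis) within each list (y axis, 1 at the top is the strongest). Diamonds are the reproducible list, circles replicate 2 and triangles replicate 3, and the grey band and dashed line are the middle 50% and the median of reproducible ranks over all bound genes. CCT4 alone lies above the median, and the replicates stand farthest apart at CCT5.

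The call itself places the summit of every bound gene within 500 bp of a TSS. Within that limit the absolute distance to the TSS had a median of 39 bp over the 7 bound CCT genes, against 77 bp over all bound genes. This difference was not tested. The summit was upstream of the TSS for 6 of the 7 (85.7%), and CCT5 was the exception by 1 bp, against 86.1% of all bound genes. The replicates placed the summit of the same CCT peak 1 to 60 bp apart with a median of 45 bp, against a median of 14 bp over all bound genes (90th percentile 52 bp). At CCT5 both replicates placed the summit upstream of the TSS, at 42 and 43 bp.

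Compact, divergent gene arrangement was shared by most of the family. A head-to-head neighbour with its TSS within 700 bp upstream was annotated for 7 of 8 CCT genes, beside 32.3% of all protein-coding genes. Within 500 bp the numbers were 4 of 8, beside 27.4%. The gaps were 59 bp for CCT4 and CG6153, 388 bp for CCT7 and Pif1A/Pif1B, 390 bp for CCT1 and tHMG1, 417 bp for CCT6 and CG8944, 528 bp for CCT8 and CG30349, 538 bp for CCT5 and Oda, and 601 bp for CCT3 and CG10324. At CCT5 and CCT8 a reproducible peak lay near each end of the gap. The same held at CCT3 and CCT6 when their weaker peaks outside the reproducible list were counted, so gaps on both sides of 500 bp were among them.

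The strongest peak within 2 kb was nearest to the TSS of another gene at 6 of 8 CCT genes, beside 50.2% of the 7176 protein-coding genes with a reproducible peak in the same range. The difference was not tested. CCT4 is among the 6 through its only reproducible peak, which lies 21 bp from the TSS of CG6153 and 38 bp from its own. In replicate 3 the summit of that peak was nearest to the TSS of CCT4, at 25 bp. At CCT8 the peak at the divergent gene CG30349 (reproducible rank 2948, 505 bp upstream of the CCT8 TSS) had 2.69 times the signal of the CCT8 promoter peak in replicate 2 and 3.27 times in replicate 3. At CCT6 the peak 145 bp past the gene end, 50 bp from the TSS of Mvd, which encodes mevalonate diphosphate decarboxylase of the isoprenoid pathway, ranked 1421. It had 3.98 times the signal of the CCT6 peak in replicate 2 and 3.84 times in replicate 3. At CCT5 the strongest peak was at EndoG, a nuclease gene, with ratios of 1.57 in replicate 2 and 2.75 in replicate 3. Oda, the ornithine decarboxylase antizyme gene that diverges from CCT5, also had its own promoter peak of rank 4736. At CCT2 the ratio of the intron peak to the promoter peak was 3.44 in replicate 2 and 4.13 in replicate 3. At CCT7 the peak at hng2 and the promoter peak were nearly alike (1.08 and 1.13), and at CCT1 the peak at tHMG2 was the weaker one in both replicates (0.441 and 0.893). The direction of each of these 6 ratios was the same in both replicates.

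**Figure D3:**
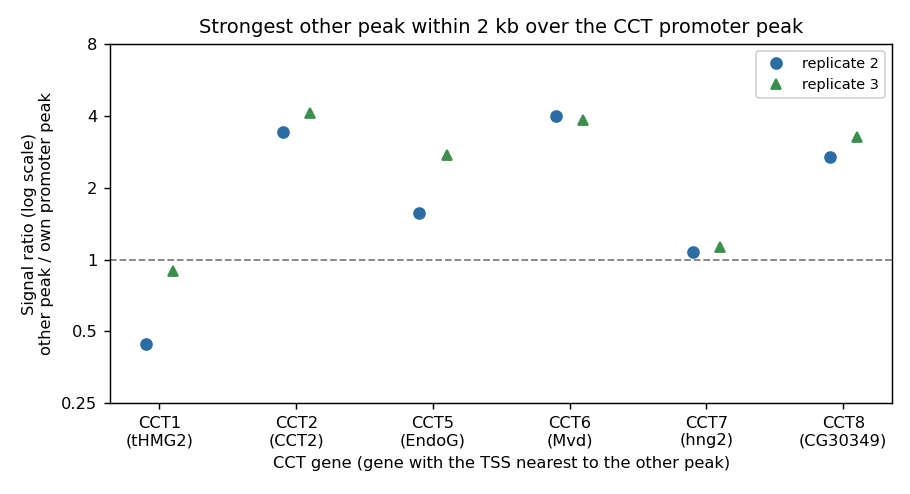
Signal of the strongest other reproducible peak within 2 kb of a CCT gene divided by the signal of its promoter peak (y axis, log scale), for the 6 bound CCT genes with another peak. Circles are replicate 2 and triangles replicate 3, and the gene in brackets has the TSS nearest to the other peak. Both replicates lie on the same side of the dashed line at 1 for every gene, above it for all but CCT1.

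A set of short motifs was then counted within 50 bp of the summits, on both strands. CGATA was in 5 of 7 CCT promoter peaks, namely CCT1, CCT2, CCT4, CCT5 and CCT8, against 35.3% of all 4193 reproducible promoter peaks. TATCGATA, which contains CGATA on both strands, was in 2 of 7 (CCT2 and CCT5), against 8.87%. In the 17 reproducible peaks near CCT genes the counts were 7 for CGATA and 3 for TATCGATA, against 23.3% and 4.61% of all reproducible peaks. GGTCACACT, called Motif 1, was in 0 of 7 CCT promoter windows, against 5.06%, and CAGCTG, an E-box, in 0 of 7, against 9.11%. TATAAA and GAGAG were each in 1 of 7, both at CCT1, against 12.1% and 9.40%. GAANNTTC, a pair of heat shock element units, was in 1 of 7, at CCT8, where the match lies 2 bp from the summit, against 2.50%. CACACACA was in 0 of 7, against 1.53%. With 7 windows these are descriptions, and the absence of the letters says nothing about a factor.

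Genes of the same folding pathway were counted by the same rule, under which 35.3% of all protein-coding genes were bound. Of prefoldin, 2 of 6 subunit genes (33.3%, near that background) were bound, Pfdn6 at rank 1044 and Pfdn1 at rank 5835, and Pfdn2, mgr, Pfdn4 and Pfdn5 were not. The mgr gene had a promoter peak of rank 7261 in replicate 3 and none in replicate 2. With the strongest peaks of replicate 3 alone the prefoldin count was thus 3 of 6, beside 37.5% of all genes. Pfdn5, whose gene lies past the 3′ end of CCT1, had no summit within 500 bp of its TSS in either replicate. Of the phosducin-like genes, CG4511 (rank 4075) and CG7650 (rank 5495) were bound and viaf was not. CG7650 had no promoter peak in replicate 2, and viaf had one of rank 3236 in replicate 2 and none in replicate 3. Of the tubulin-folding cofactor genes, which act after the chaperonin in assembling tubulin dimers, Tbcd (rank 1348), Tbca (4163), Tbcc (4347) and Tbce (6138) were bound and Tbcb was not, which makes 4 of 5.

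Among genes of other chaperone systems, 14 of 16 on the Hsp70 and Hsp90 list were bound (87.5%), beside 35.3% of all protein-coding genes. The bound ones include Hsf, a transcription factor gene rather than a chaperone gene, which had no promoter peak in replicate 2. The strongest were Hsp83, the cytosolic Hsp90 gene, at rank 515, mrj, a DnaJ-type co-chaperone gene, at rank 586, STUB1, which encodes a ubiquitin ligase that works with chaperones, at rank 1102, and p23, a co-chaperone gene of Hsp90, at rank 1315. Hsc70-1 and Hsc70-2 were not bound. On the list of the mitochondrial group I chaperonin, a distant relative of the CCT complex, 1 of 6 genes was bound, CG11267, which has Hsp10 among its RefSeq synonyms, at rank 1022. CG9920 and Hsp60A were among those not bound, and Hsp60A had a promoter peak of rank 7862 in replicate 2 and 11142 in replicate 3, so that replicate 2 alone gave 2 of 6.

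Among genes for proteins that the chaperonin folds, 7 of 10 tubulin genes were bound, led by alphaTub84B (rank 1683), betaTub56D (2666), gammaTub37C (4432) and gammaTub23C (5926). The unbound ones included alphaTub67C and alphaTub85E. With the strongest peaks of replicate 2 alone the count fell to 4 of 10, near the 34.4% of all genes in that setting. Of 6 actin genes, Act5C (rank 7253) and Act42A (7773) were bound (33.3%, near the share of all genes). Act57B and Act79B were among those that were not. With the strongest peaks of either replicate alone the actin count was 1 of 6, since Act5C ranked 10965 in replicate 2 and Act42A 9124 in replicate 3. That is below the share of all genes in those settings, 34.4% in replicate 2 and 37.5% in replicate 3. Of the WD-repeat activators of the anaphase-promoting complex, fzy (rank 2040) was bound and fzr was not, although fzr had promoter peaks of rank 8467 in replicate 2 and 8326 in replicate 3, so that each replicate alone gave 2 of 2. All 8 comparison lists together held 33 bound genes of 54 (61.1%), beside the 35.3% of all genes. Differences between lists were not tested.

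**Figure D4:**
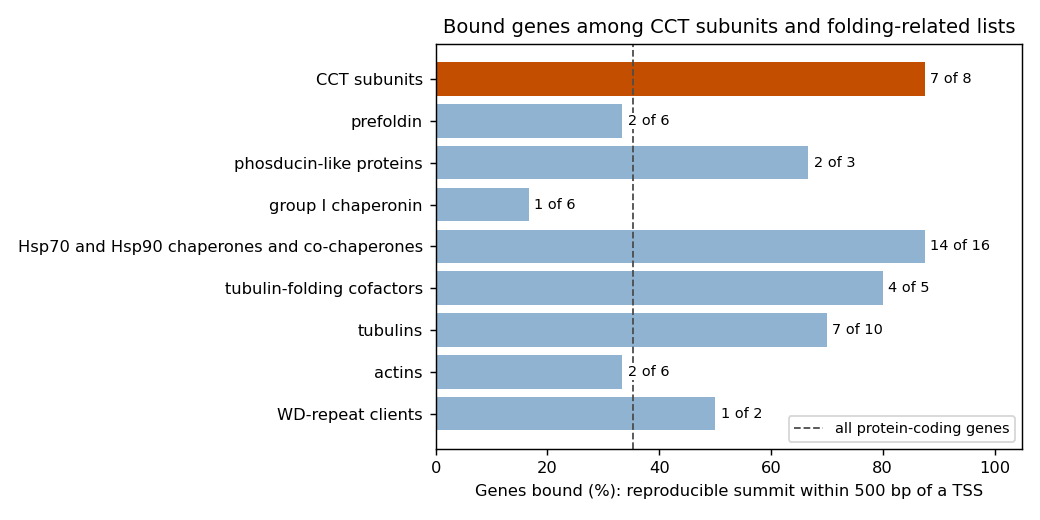
Percentage of genes bound (x axis, reproducible summit within 500 bp of a TSS) for the CCT subunits, at the top, and 8 lists of cofactor, chaperone and client genes, with counts beside the bars. The dashed line is the share of all protein-coding genes, 35.3%. CCT subunits and the Hsp70 and Hsp90 list have the same share, 87.5%, and most of the other lists rest on 6 genes or fewer.

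The genes with promoter peaks most like those of the CCT genes were sought among bound genes with a partner peak in both replicates, by the Euclidean distance of log2 ranks over the 2 replicates and without genes that share a peak. The closest match was CanB2 for CCT8, with ranks of 8757 and 8897 for CCT8 and of 8759 and 8890 for CanB2 in replicates 2 and 3. The others were CG31715 for CCT7, CG44249 for CCT4, CG11357 for CCT1, Vps52 for CCT2, CG31229 for CCT6 and CG46385 for CCT5. No CCT gene was the nearest to another CCT gene. Each search ran over 4756 to 4758 genes, very few of them CCT genes, so such a match was unlikely from the start. Its absence says nothing about how alike the CCT peaks are, and likeness here means rank alone.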

How the data were processed

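Peak lists of 2 biological replicates of 1 group (ChIP-seq for CG1603-GFP, sonicated fragments of 200 to 800 bp per the labels) were analysed on dm6. The authors deposited peaks called on each replicate and on both pooled (exactly 30000 lines each) and a reproducible list of 8963, all of them lines of the pooled list. Per the deposited description files, each called list came from the alignments and 1 further file, the same for both replicates and also used for control-normalized tracks. Aligner and peak caller were not given in the sources used here. The signal value is the authors' own, of unstated scale, and was used within a list only. The deposited −log10 q values were tied at the highest value for 71.4% of reproducible peaks and served in 1 alternative. Summit offsets were deposited as bp from the peak start. Depth is unknown from peak lists, and no interval is given.

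Genes came from Ensembl release 115 (BDGP 6.54) on 2L, 2R, 3L, 3R, X and 4, sequence from RefSeq. A replicate's partner of a peak is the overlapping peak with the nearest summit. Named genes were all CCT genes, those sharing their peaks, all members of the small lists, and of larger lists up to 4 bound by signal and 2 unbound in alphabetical order. Other neighbour genes with a peak, from tHMG2 to hng2, were named after their values were seen, and so was Hsf. Tbca to Tbce and Hsp110 (listed as Hsc70Cb) were matched by RefSeq synonym. The members and lists were chosen with earlier results of these data known. Calls and motif search were tested on simulated peaks. Python 3.11.15, NumPy 2.4.6, pandas 2.3.3 and Matplotlib 3.10.9 were used.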

Additional observations from a re-analysis of the deposited data

How the results depend on the processing

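The number of bound CCT genes ranged from 5 to 8 under 9 of 10 alternative settings (7 without replicate 2 and 8 without replicate 3) and was 2 with the 4481 strongest reproducible peaks, a list shorter by construction. It was 8 with the whole list of either replicate, settings added after the data were seen. The comparison lists held 28 to 38 bound genes in all under those 9 settings (33 without replicate 2, 30 without replicate 3), and 17 with the 4481 strongest. The share of all genes bound was 30.3% at 250 bp, 39.0% at 1000 bp, 51.5% over gene bodies and 2 kb, 23.0% with the 4481 strongest, 47.1% with the pooled list, 27.8% with the nearest TSS only, 46.8% and 50.5% with the whole lists of replicates 2 and 3, and 34.4% to 37.5% with 1 replicate's strongest peaks. The median rank of CCT promoter peaks, as a percentage of the list's length, was 64.6% of the reproducible list over 7 genes, and 35.7% by −log10 q, where ties dominate. Over 8 genes it was 21.5% of the pooled list and 16.2% to 18.4% of single replicates' lists, which are longer. The single-replicate medians took the strongest peak within 500 bp. At CCT8 this was the peak nearest to CG30349 (rank 3474 in replicate 2, 2524 in replicate 3). At CCT3 in replicate 2 it was the peak nearest to CG10324 (rank 4180). Motif counts over the CCT promoter peaks moved with the window. TATCGATA was in 1 peak without replicate 2 and in 2 without replicate 3. CAGCTG and GAGAG were each in 2 of 7 within 150 bp, against 22.2% and 30.5% of all promoter peaks. GAANNTTC was in 2 within 100 bp (all promoter peaks 5.84%), in 2 within 150 bp (8.61%) and in 2 at the TSS. CGATA stayed in 5 of 7 within 100 and 150 bp. Its share of all promoter peaks rose from 35.3% within 50 bp to 49.3% and 56.6%, so the contrast shrank with the window. At the TSS, Motif 1 was in 1 and TATAAA in 0. The cause was not tested. Of 80 calls of single CCT genes under the 10 settings, 13 changed, and 2 of 16 changed under the added ones. No paired analysis was possible because the series holds 1 group. The CCT4 peak lies between divergent start sites and cannot be assigned to either by position, the CCT6 peak is nearer to CG8944, and no control peak list was used.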

Other observations

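Weaker peaks of the pooled list that fell outside the reproducible list also occurred near CCT genes. The pooled list held 24 peaks within the 8 genes and 2 kb around them, against 17 in the reproducible list. CCT5 had one 252 bp downstream of its downstream TSS, in an intron, of pooled rank 18725. CCT7 had one at the start site of CG9839, within the CCT7 gene body, of pooled rank 9737 (8638 in replicate 2 and 11300 in replicate 3), and another 1480 bp upstream, near an alternative start site of Pif1A and Pif1B, of pooled rank 11681 (18359 in replicate 2 and 9294 in replicate 3). The weakest, 363 bp past the end of CCT4, had pooled rank 29893 near the end of the list, and replicate 3 had no peak there.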
